A study of Mus musculus with 3 samples.

Results

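The 44 genes described here encode the actin cytoskeleton: actin itself, the proteins that hold, sever or cap it, the Arp2/3 complex that branches it, and the linkers, cross-linkers and motor that act on the filaments. They were taken by symbol from a list arranged by what their proteins do, and all 44 were found among the 55536 Ensembl genes of the deposited gene tables. Each library held cytosolic RNA, depleted of ribosomal RNA, from C57BL/6J bone marrow-derived macrophages, phagocytes grown in culture from marrow cells. Every culture had met 100 ng/ml Lipid A, the lipid anchor of the endotoxin of Gram-negative bacteria, for 12 h, had then spent 12 h after its removal, and had received the same dose once more for 50 min. The study has 1 group of 3 biological replicates with no unstimulated or once-stimulated cells, so the design gives levels and their spread and no effect of Lipid A. The labels record neither the age nor the sex of the mice, and give all 3 replicates 1 donor entry, so the spread is that between these samples and may in part be technical. Nuclear RNA of the same cells was not analysed here. Depth was 47972048 to 54409437 expected counts over genes.

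Actin exists as single molecules and as filaments that grow at one end and are taken apart at the other. Thymosins and profilin hold the single molecules, cofilin severs old filaments, capping protein stops their growth, and the Arp2/3 complex, switched on by WASP and WAVE proteins, starts new branches on existing filaments. In macrophages these branched networks push out the membrane around a particle during phagocytosis and build podosomes, the small adhesive feet on which the cells crawl.

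Of the 44 genes, 43 had a TPM (a level scaled by transcript length and by the library total) of at least 1 in every replicate, where 41.1% of 22028 protein-coding genes did. In every replicate 38 of the 44 lay above the median of the expressed protein-coding genes, which was 9.78, 7.29 and 10.3 TPM in replicates 1, 2 and 3. Together they held 4.22%, 5.34% and 3.94% of the TPM of all protein-coding genes (4.50% ± 0.743; here and below, ± is the SD over 3 replicates). Most of that share came from a few genes: the actins held 1.29% ± 0.245 and the binders of single actin molecules 1.94% ± 0.472, while the 8 Arp2/3 genes held 0.455% ± 0.00837 and the 9 severing and capping genes 0.346% ± 0.0106. In bulk RNA of this kind, fewer cells of a type and less RNA per cell cannot be told apart. The 15 macrophage markers were all expressed, led by the lysozyme gene Lyz2 at 3417 TPM and the protease gene Ctss at 1369 TPM on average. Markers of other cells with a mean of at least 1 TPM were Pf4 (101.5), Kdr (6.11), S100a9 (5.41), S100a8 (3.80), Cd79b (1.33) and Ccr7 (1.12). Most members of their lists stayed lower. At least 1 TPM in every replicate was reached by 1 of 6 erythroid and platelet, 1 of 5 endothelial and 2 of 7 neutrophil markers. It was reached by 1 of 5 dendritic cell and 0 of 5 B cell markers. The 10 fibroblast and smooth muscle markers summed to between 0.390 and 0.710 TPM, with Pdgfra at 0 TPM in all 3 replicates. What cells other than macrophages add to the actin genes was not tested.

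**Figure D1:**
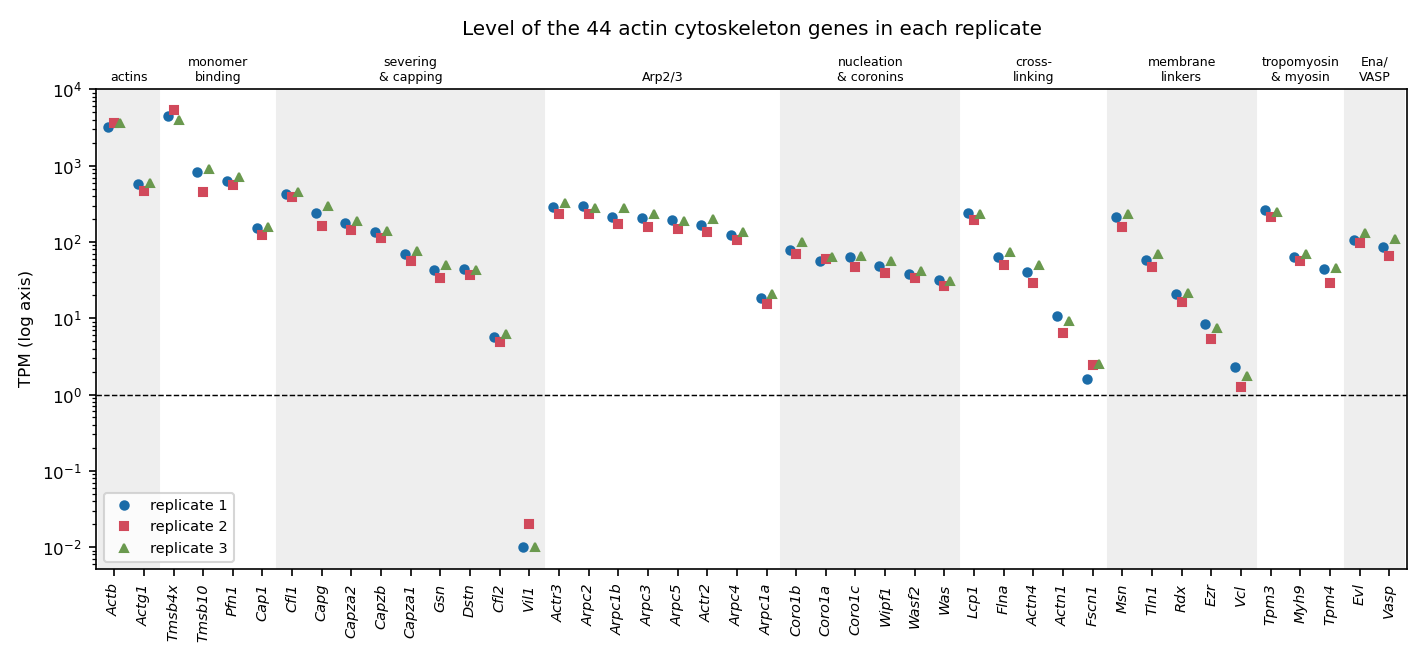
TPM of the 44 genes (vertical log axis) in each of 3 replicates, grouped by role and ordered by mean level within a role; the dashed line marks 1 TPM. Tmsb4x and Actb stand highest, Fscn1 and Vcl lie just above the line, and Vil1 lies far below it.

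The cytoplasmic actins came first among the building blocks. Actb, the gene of β-actin (ENSMUSG00000029580.14, mm10 chromosome 5, 142903115 to 142906754, minus strand), had 3249, 3631 and 3661 TPM in replicates 1, 2 and 3. Actg1, the gene of γ-actin (ENSMUSG00000062825.15, mm10 chromosome 11, 120345690 to 120348542, minus strand), had 578, 473 and 594 TPM. The groups of values did not overlap, and Actb was 5.62 to 7.68 times as high as Actg1. Actb made up 86.5% ± 1.83 of the TPM of 6 actin genes. The muscle and other actins were close to absent: Acta2 had 0.150, 0.05 and 0.240 TPM, Acta1 at most 0.01, and Actc1 and Actg2 were listed at 0, as was the actin-like gene Actbl2. The γ-actin pseudogene Actg-ps1 had 0.05, 0.0200 and 0.0900 TPM.

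The messages of β- and γ-actin are alike enough to ask whether reads could be assigned. Their coding sequences have 1128 bases each and matched at 1000 of them (88.7% identity). The longest run of bases shared by the leading coding transcripts was 62, shorter than the fragments of 250 to 400 bases that the labels give. Assignment also depends on read length, which was not examined here. The first 90 coding bases, 5′ to 3′ from the start codon, show how the differences are spread; capitals mark the 16 positions at which the pair differs.
Actb: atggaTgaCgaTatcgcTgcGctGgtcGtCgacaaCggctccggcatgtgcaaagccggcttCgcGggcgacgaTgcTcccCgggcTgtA
Actg1: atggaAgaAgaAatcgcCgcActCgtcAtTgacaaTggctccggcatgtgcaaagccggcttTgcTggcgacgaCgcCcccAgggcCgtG
Most differing positions in this stretch stand alone between matching bases. The posterior SD deposited with each count, a measure of how far shared reads leave it uncertain, was at most 0.0678% of the count for Actg1 and 0.000163% for Actb.

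Among the binders of single actin molecules, the thymosins stood out by level and by spread. Tmsb4x, the gene of thymosin β4, the chief store of unpolymerised actin in many cells (ENSMUSG00000049775.16, mm10 chromosome X, 167207093 to 167209315, minus strand), had 4419, 5292 and 3941 TPM. It ranked first of the 44 genes, above Actb by 0.36 ± 0.23 on the log2 scale and in the same order in 3 of 3 replicates. Tmsb10, the gene of thymosin β10 (ENSMUSG00000079523.8, mm10 chromosome 6, 72957347 to 72958748, minus strand), had 838, 448 and 911 TPM. Its replicate 2 lay well below the other two, whereas replicate 2 was the highest for Tmsb4x. The 2 thymosins together had 1.37, 1.40 and 1.14 times the TPM of the 2 actins. Pfn1, the gene of profilin, which feeds actin to growing filament ends, had 623, 566 and 721 TPM. Cap1, whose product recharges actin after it leaves the filament, had 150, 123 and 160 TPM. Of these, Tmsb10 and Pfn1 did not keep one order across replicates, since Tmsb10 was the higher in 2 of 3.

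The coding sequences of the thymosins are short, which makes the pair easy to see whole. Both have 135 bases, match at 95 of them (70.4% identity) and share no run of bases longer than 10. The sequences are printed 5′ to 3′ with the 40 differing positions in capitals.
Tmsb4x: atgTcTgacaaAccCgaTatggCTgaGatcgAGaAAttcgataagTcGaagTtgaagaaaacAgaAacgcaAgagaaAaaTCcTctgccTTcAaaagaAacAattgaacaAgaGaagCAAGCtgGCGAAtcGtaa
Tmsb10: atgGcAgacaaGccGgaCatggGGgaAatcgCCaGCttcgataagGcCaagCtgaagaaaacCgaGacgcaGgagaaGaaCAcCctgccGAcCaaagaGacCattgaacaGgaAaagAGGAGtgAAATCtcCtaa
The differing bases are densest near the stop codon. The posterior SD was listed as 0 for Tmsb4x and was at most 0.0163% of the count for Tmsb10.

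Severing and capping genes covered a wide range of levels. Cfl1, the gene of the severing protein cofilin-1, had 423, 384 and 454 TPM, and Capg, the gene of a macrophage capping protein that blocks filament ends, had 239, 163 and 300 TPM. The related severing genes were far lower: Dstn (destrin) had 44.4, 37.1 and 43.4 TPM and Cfl2, the cofilin known from muscle, 5.65, 4.83 and 6.14 TPM. Gsn, the gene of gelsolin, had 42.8, 33.6 and 50.4 TPM, and Capg was 4.85 to 5.96 times as high. The capping protein of filament ends is a pair of an α and a β chain. Capza2 (175, 143 and 186 TPM) exceeded Capza1 (69.4, 55.9 and 76.7 TPM) in every replicate, and the 2 α genes together had 1.83 ± 0.0753 times the TPM of the β gene Capzb (134, 113 and 137 TPM). Vil1, the gene of villin from the brush border of epithelia, had 3, 5 and 3 expected counts, or at most 0.0200 TPM. In 2 of the 3 replicates this does not exceed 3 counts, the limit set by a count of 0. The 5 counts of replicate 2 do exceed it, so Vil1 lay at or near that limit at this depth.

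By gene TPM, the subunits of the Arp2/3 complex had similar message levels. The complex holds 1 copy each of 7 proteins, one of which comes as either Arpc1a or Arpc1b. Actr3, encoding one of the 2 actin-related subunits that form the seed of a branch, had 290, 234 and 323 TPM, and Actr2, encoding the other, had 169, 136 and 201 TPM. Arpc2, encoding part of the core that grips the mother filament, had 299, 234 and 281 TPM. Arpc3 and Arpc5, encoding smaller subunits, averaged 199 ± 35.9 and 176 ± 22.9 TPM, and Arpc4, encoding the partner of Arpc2, had 125, 107 and 134 TPM. With Arpc1a and Arpc1b added together, the highest subunit had 2.40, 2.19 and 2.41 times the TPM of the lowest in replicates 1, 2 and 3. Arpc4 was the lowest in all 3, at 0.619 ± 0.0460 of the median subunit, and Actr3 and Arpc2 stood at 1.43 ± 0.0365 and 1.38 ± 0.135 of it. The Arpc4 level counts all its transcripts, of which Arpc4-201, with a reading frame of 507 bases, held only 26% ± 2.31. Arpc1b (211, 174 and 278 TPM) supplied 92.3% ± 0.638 of the Arpc1 TPM and Arpc1a (18.6, 15.4 and 20.98 TPM) the rest.

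**Figure D2:**
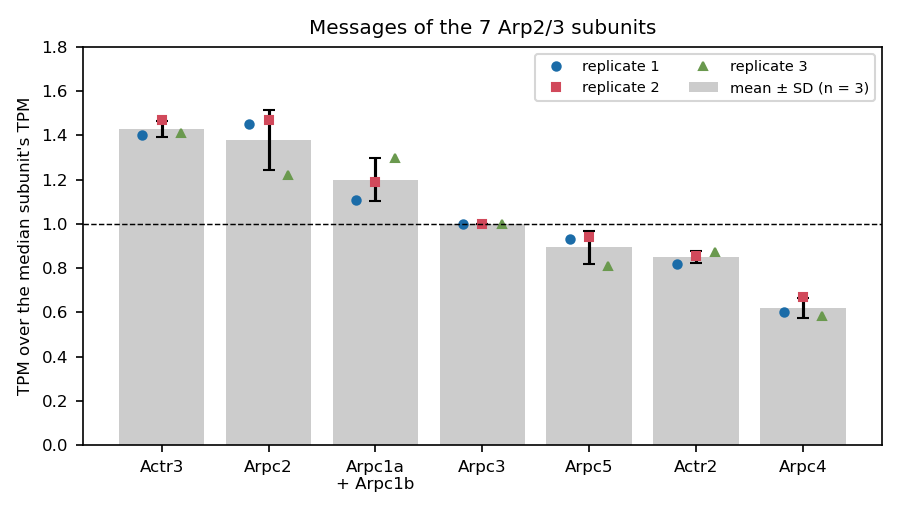
TPM of each Arp2/3 subunit divided by that of the median subunit of the same replicate (bars, mean ± SD, n = 3; symbols, replicates), with Arpc1a and Arpc1b added together. The means run from 1.43 for Actr3 to 0.619 for Arpc4.

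The genes that switch the Arp2/3 complex on, and the coronins that act with it, were of middle level. Was, the gene of WASP of blood cells, had 31.5, 26.5 and 30.6 TPM, less in every replicate than Wasf2, the gene of WAVE2, with 38.5, 33.2 and 42.2 TPM. Wipf1, whose product binds and stabilises WASP, had 47.8 ± 8.22 TPM. Coro1b had 79.6, 69.8 and 99.0 TPM, Coro1a, the coronin of blood cells, had 57.0, 59.3 and 63.9 TPM, and Coro1c had 63.7, 46.4 and 65.9 TPM. Coro1a and Coro1c could not be ordered, because Coro1a was the higher in 1 of 3 replicates.

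The cross-linkers ranged widely in level. Lcp1, the gene of L-plastin, which bundles filaments in white blood cells, had 240, 195 and 234 TPM, and Flna, encoding the filamin that joins filaments into a mesh, had 63.2, 49.5 and 73.0 TPM. Of the α-actinins, Actn4 (40.4, 28.7 and 50.3 TPM) was higher than Actn1 (10.8, 6.42 and 9.31 TPM) in every replicate. Fscn1, the gene of fascin, a bundling protein known from mature dendritic cells, was the lowest with 1.59, 2.47 and 2.51 TPM.

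Among the linkers to the membrane and to adhesions, one member of the ERM family prevailed. Msn, the gene of moesin, had 213, 159 and 235 TPM, against 20.5, 16.2 and 21.1 TPM for Rdx (radixin) and 8.31, 5.35 and 7.34 TPM for Ezr (ezrin). Tln1, encoding talin, which ties integrins to actin, had 57.7, 46.7 and 69.7 TPM. Vcl, encoding vinculin, which talin recruits, had only 2.28, 1.24 and 1.75 TPM and was the lowest expressed gene of the list by mean gene TPM. Vcl overlaps Ap3m1 on the other strand, whose count was 597% of that of Vcl; the strand setting of the counting is not given in the sources used here, so antisense reads in the Vcl value cannot be told apart.

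Of the genes that stiffen and pull filaments, Tpm3 (260, 211 and 251 TPM) was the higher tropomyosin, above Tpm4 (44.6, 28.9 and 44.9 TPM) in every replicate. Myh9, the heavy chain of non-muscle myosin IIA, had 63.6, 56.4 and 68.6 TPM. The Ena/VASP genes, whose products lengthen filaments at their tips, were Evl with 108, 95.9 and 132 TPM and Vasp with 85.5, 65.3 and 108 TPM.

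Ranked by mean TPM, neighbours among the 44 genes were often too close to order: 23 of the 43 neighbouring pairs kept their order in all 3 replicates. The order was the same in every replicate for Tmsb4x above Actb, Actb above Tmsb10, Pfn1 above Actg1, Actg1 above Cfl1 and Cfl1 above Actr3. It was not for most neighbours between Actr3 and Capza2, nor between Capza1 and Tln1, where levels lie within the replicate spread. At the low end Arpc1a, Actn1, Ezr, Cfl2 and Fscn1 followed one another in this order in every replicate, and Fscn1 exceeded Vcl in 2 of 3.

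Within each replicate, 16 pairs of related genes were compared on the log2(TPM + 1) scale, on which differences of low genes are understated. In 15 pairs the difference had one sign in 3 of 3 replicates. With 3 replicates the exact two-sided sign-flip permutation test cannot give less than p = 0.25, or 0.267 after adjustment over the 16 pairs, so no pair could pass a threshold of 0.05. The widest difference was Cfl1 over Cfl2, 6.01 ± 0.03, followed by Msn over Ezr, 4.67 ± 0.15, Arpc1b over Arpc1a, 3.51 ± 0.14, Msn over Rdx, 3.32 ± 0.10, and Cfl1 over Dstn, 3.31 ± 0.07. Tmsb4x exceeded Tmsb10 by 2.69 ± 0.77 and Actb exceeded Actg1 by 2.68 ± 0.23: the mean differences were alike, and the thymosin pair had the wider spread, from 2.11 to 3.56. Capg exceeded Gsn by 2.42 ± 0.16, Actn4 exceeded Actn1 by 2.04 ± 0.25 and Actr3 exceeded Actr2 by 0.74 ± 0.05. Differences were negative, the second gene being higher, for Tpm4 minus Tpm3 (-2.60 ± 0.20), Capza1 minus Capza2 (-1.31 ± 0.04), Coro1a minus Coro1b (-0.44 ± 0.20), Vasp minus Evl (-0.39 ± 0.14, but 1.58 ± 0.24 over whole reading frames alone) and Was minus Wasf2 (-0.35 ± 0.09). Coro1a minus Coro1c was 0.05 ± 0.26 (exact permutation p = 1), and -0.10 without replicate 2.

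**Figure D3:**
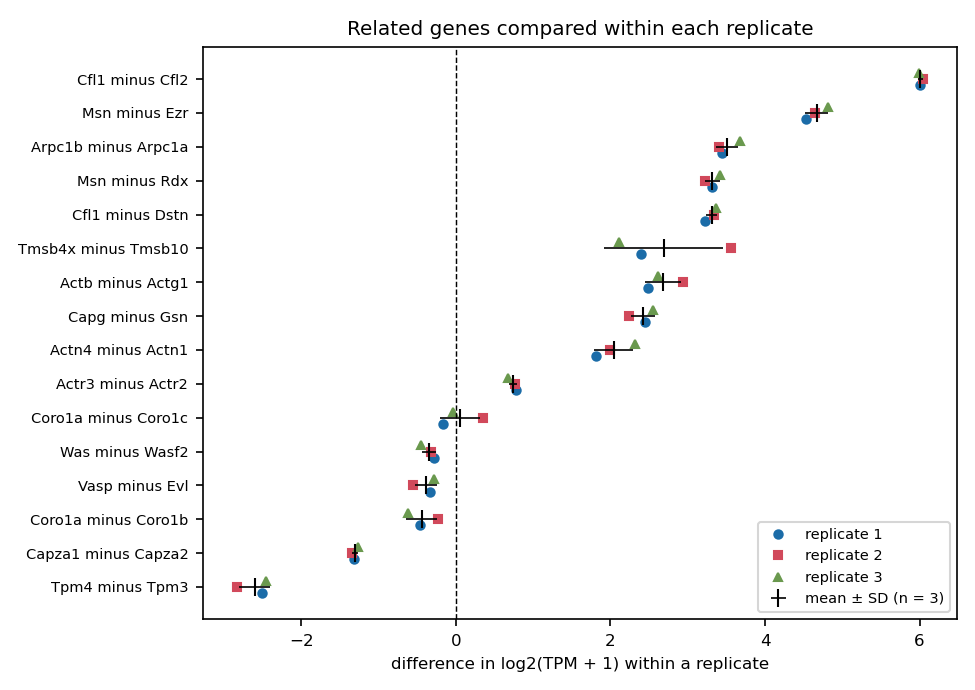
Difference in log2(TPM + 1) between the genes of 16 related pairs within each replicate (symbols), with mean ± SD (n = 3); the dashed line marks equal levels. Coro1a minus Coro1c is the one pair on both sides of the line, and Tmsb4x minus Tmsb10 has the widest spread.

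How the replicates differed was read from CPM, counts over the library size, with library sizes scaled by the trimmed mean method of edgeR. TPM is a share of all indexed entries, and protein-coding genes held 33.3%, 26.1% and 37.0% of it in replicates 1, 2 and 3. Which other entries made up the difference was not tested. Of 43 genes whose mean count reached 10, 42 varied by more than counting error (Poisson chi-square over the 3 replicates, adjusted over all 13827 genes tested), where 70% of all genes tested did. At this depth even small differences pass, and the size was mostly small: the median ratio of the highest to the lowest replicate was 1.17, against 1.23 over all genes tested, and was under 1.2 for 29 of the 43. The gene that did not pass was Cfl2, with 10.9, 11.0 and 10.9 CPM (adjusted p = 0.993). The median biological coefficient of variation, the edgeR estimate of spread beyond counting error, was 0.138 for the 43 genes and 0.164 over all genes. Where the mean count reached 100, these medians were 0.141 and 0.140. The estimate of each gene is drawn toward that of other genes, so it is not the measured spread of the gene alone. Cfl2, with a ratio of 1.007, still had 0.132.

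The genes past the test with a ratio of at least 1.5 were 3, Tmsb4x, Tmsb10 and Fscn1, where 19.5% of all genes tested met both conditions. Tmsb4x had 3432, 5455 and 3049 CPM and was high in replicate 2 (ratio 1.79). Tmsb10 had 417, 297 and 461 CPM and was low in replicate 2 (ratio 1.55), so the thymosins deviated in opposite directions, by 0.50 and by -0.38 on the log2 scale. Fscn1 had 5.01, 9.81 and 7.99 CPM and was low in replicate 1 (ratio 1.87). Below that size came Actb, with 7787, 11550 and 8519 CPM and a ratio of 1.48, and Coro1a, with 111, 154 and 122 CPM and a ratio of 1.38; both were highest in replicate 2. Actg1 differed much less than Actb, with 1358, 1474 and 1367 CPM. Without replicate 2, Fscn1 was the 1 gene left with a ratio of at least 1.5, and without replicate 1 Fscn1 fell short of it while the thymosins did not. With library sizes from total counts, Tmsb10 fell short of it, and 40 genes in place of 42 passed the test, Arpc1a and Arpc3 being the ones lost.

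On the CPM scale the 43 genes were not spread evenly over the replicates. In replicate 2, 23 of them had their highest value (31.4% of all genes tested did), against 5 in replicate 1 (34.4%) and 15 in replicate 3 (34.2%). In replicate 1, 25 had their lowest value (32.2% of all genes), against 8 in replicate 2 (31%) and 10 in replicate 3 (36.8%). The actins, Pfn1, Cap1, Cfl1 and Myh9 were among those highest in replicate 2 and lowest in replicate 1, while Capg, Flna, Actn4 and Tmsb10 were highest in replicate 3 and lowest in replicate 2. The median deviation of the 43 genes was small in each replicate, -0.06, 0.05 and 0.01 on the log2 scale, and it was 0.00 over all genes tested. In TPM rescaled to protein-coding genes the counts for replicate 2 stayed close, with 25 of the 43 highest and 8 lowest there (29.5% and 31.6% of all genes tested), while 14 in place of 25 were lowest in replicate 1. In deposited TPM they did not stay: 39 of the 43 were lowest in replicate 2, as were 80% of all genes tested, although Tmsb4x was still highest there. Marker genes differed between replicates too. Of the 15 macrophage markers, 11 had their lowest CPM in replicate 1 (32.2% of all genes tested did). However, 9 of them were highest in replicate 3 and 4 in replicate 2 (34.2% and 31.4% of all genes). Their median deviations were -0.15, 0.02 and 0.11 on the log2 scale. All 3 tested neutrophil markers and the 1 tested B cell marker were highest in replicate 2. Of 3 tested endothelial markers, 2 were highest in replicate 3 and 1 in replicate 2. The part of these markers in the counts of actin cytoskeleton genes was not tested.

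**Figure D4:**
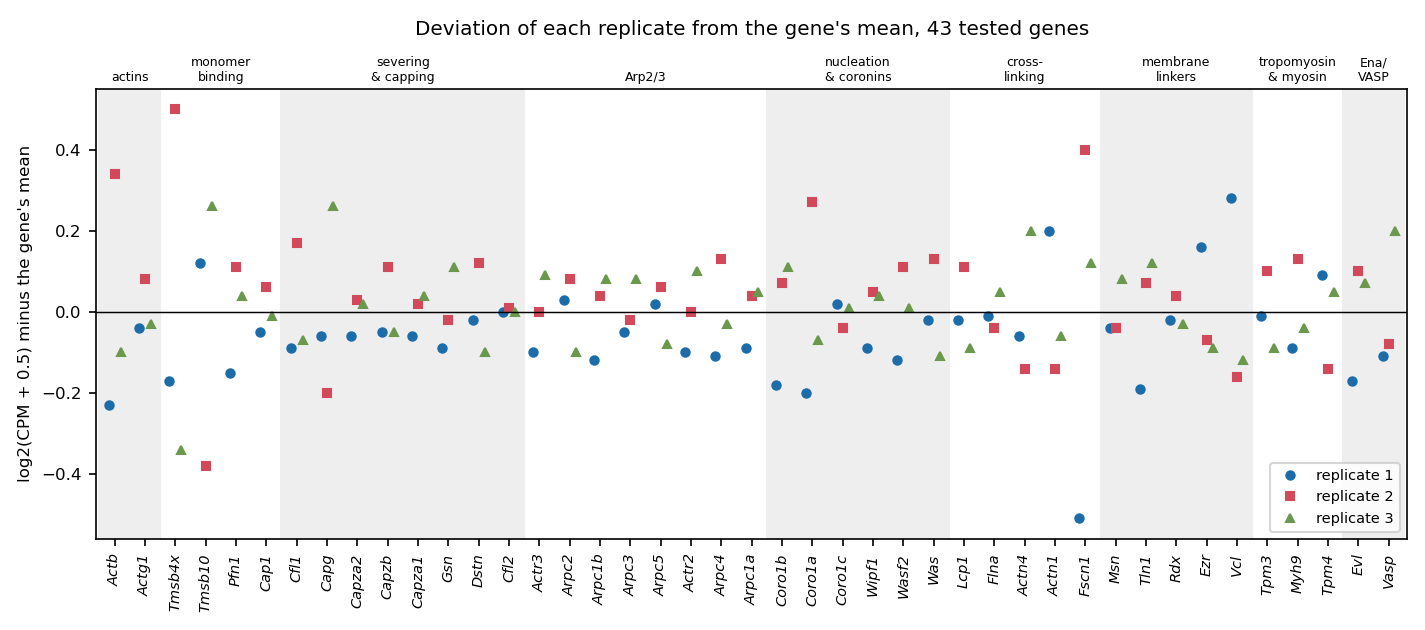
Deviation of each replicate from the mean of its gene in log2(CPM + 0.5), for 43 tested genes grouped by role; the line marks the gene's mean. Tmsb4x, Actb, Coro1a and Fscn1 lie above the line in replicate 2, Tmsb10 and Capg below it, and the Arp2/3 genes stay within 0.13 of it.

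Transcripts of the 44 genes were read from both deposited transcript tables, which give 302 annotated transcripts of these genes. The transcript with the largest share of its gene's TPM was the same in both tables for 44 of 44 genes. In the first table it held at least 90% of the TPM in 26 genes, 50 to 90% in 15 and less than 50% in 3 (Arpc4, Evl and Wipf1); in the second, 17 genes reached 90%. Actb-201 held 99.1% ± 0.219 of Actb, Tmsb10-203 99.2% ± 0.0476 of Tmsb10, Pfn1-201 99.2% ± 0.259 of Pfn1 and Was-201 99.9% ± 0.218 of Was. The tropomyosins and vinculin are known for tissue-specific forms. Tpm3 had 5 annotated transcripts with a reading frame whole from start to stop codon. Of its transcripts Tpm3-201, with a short frame of 747 bases, led with 92.5% ± 1.09. Tpm4 and Vcl each had only 1 annotated transcript with a whole frame, so no other such form could lead. These were Tpm4-201 (747 bases), with 99.3% ± 0.374 of Tpm4, and Vcl-201 (3201 bases), with 97.0% ± 3.49 of Vcl.

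The tables differed on several genes. Actg1-202 held 58.0% ± 5.20 of Actg1 in the first table and 83.3% ± 4.38 in the second, the balance lying mostly with Actg1-204, whose reading frame is also 1128 bases long. Tln1-201 held 91.9% ± 5.20 in the first and 61.9% ± 7.09 in the second, and Capza2-201 79.6% ± 2.10 and 58.2% ± 4.34. Rdx-203 and Rdx-201 shared Rdx as 66.6% and 33.4% in the first table and as 50.8% and 48.5% in the second. At the level of whole genes the tables were closer: the ratio of the second to the first, in TPM rescaled to protein-coding genes, lay between 0.825 (Flna) and 1.38 (Tln1) for all 44.

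**Figure D5:**
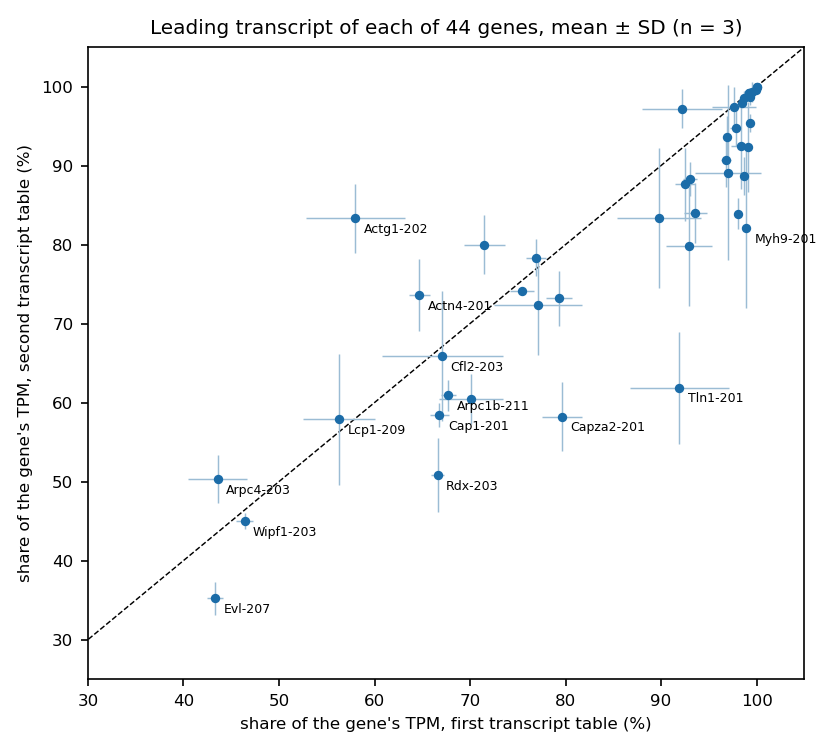
Share of the gene's TPM held by the leading transcript of each of the 44 genes in the first (horizontal) and second (vertical) transcript table, in percent, mean ± SD (n = 3); the dashed line marks equal shares. Actg1-202 lies above the line, and Tln1-201, Capza2-201 and Rdx-203 lie below it.

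Some of the TPM of these genes lay on transcripts that hold no whole reading frame from start to stop codon in the annotation. The median share of TPM on whole reading frames was 97.7% over the 44 genes, and 4 genes had less than 75%. Cfl2 had 23.3% ± 3.03, because Cfl2-203, annotated as a processed transcript without a reading frame, held 67.1% ± 6.34. Actn4 had 64.7% ± 1.14, with the processed transcript Actn4-206 at 33.8% ± 1.13, and Flna had 73.3% ± 2.15. Evl had 24.5% ± 1.78: Evl-207, annotated without its start, held 43.3% ± 0.885 of the TPM on a mean of 1371 counts, and Evl-206, annotated without its end, held 30.8% ± 1.76 on 3463 counts. Counting whole reading frames alone, an alternative chosen after seeing the data, Vasp exceeded Evl by 1.58 ± 0.24 on the log2 scale in 3 of 3 replicates, the opposite of the order by gene TPM. The direction of that pair therefore depends on which transcripts are counted. Cfl2 was then at 1.30 ± 0.258 TPM, below the means of Fscn1 (2.01 ± 0.546) and Vcl (1.69 ± 0.446). The order at the low end therefore depends on this choice too. Cfl1 over Cfl2 widened to 7.52 ± 0.11, and Arpc4 stayed at 122 ± 13.8 TPM. However, most of the Arpc4 TPM lay on short frames of 237 bases, in Arpc4-203 (43.6% ± 3.08) and Arpc4-204 (30.4% ± 2.02). Arpc4-201, with a frame of 507 bases, held 26% ± 2.31 in the first table and 12.4% ± 0.469 in the second. The Arpc4 level in the Arp2/3 comparison counts all of these frames, and what the short ones encode was not tested.

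Transcripts annotated as retained introns, processed transcripts or targets of nonsense-mediated decay held a median of 1.14%, 0.862% and 0.684% of the TPM of the 43 expressed genes in replicates 1, 2 and 3, against 3.35%, 2.26% and 1.55% over 9059 expressed protein-coding genes. Msn had 5.01%, 1.42% and 0.684% on such transcripts, Actg1 2.42%, 1.12% and 0.704%, and Lcp1 4.39%, 1.82% and 1.37%, each highest in replicate 1. Of 36 genes with such a transcript, 21 had their highest share in replicate 1, where 55.8% of 7107 protein-coding genes did. In the other transcript table this held for 28 of 36, where 68.6% of 7338 did. Arpc1b (8.47%, 6.13% and 13.4%) and Capza2 (4.91%, 2.99% and 7.29%) were highest in replicate 3. The nuclear RNA Malat1 moved with the median share, at 6066, 3077 and 1408 CPM; its part in the shares was not tested.

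The regulators around these genes were taken from lists. Over all genes tested, 70% passed the test of variation between replicates and 19.5% did so with a ratio of at least 1.5. Of 10 kinases and phosphatases that set the activity of cofilin and myosin, 10 were expressed, 9 passed the test of variation between replicates and 0 did so with a ratio of at least 1.5; the highest were Pak2 (25.9, 20.9 and 28.3 TPM) and Ssh3 (20.6, 16.7 and 23.1 TPM). Of 15 genes of the WAVE complex and formins, 13 were expressed and 13 passed, and 1, Abi3 (35.2, 49.5 and 53.4 CPM), reached 1.5. The highest were Nckap1l, the blood cell form of a WAVE subunit (90.6, 73.2 and 107 TPM), and Cyfip1, its partner (54.8, 43.4 and 60.2 TPM).

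Of 23 other actin regulators, 23 were expressed, 20 passed and 4 reached 1.5, where 70% and 19.5% of all genes tested did. Marcksl1, whose product binds membrane and actin, had 749, 481 and 921 CPM and was low in replicate 2, and Plek, the gene of pleckstrin, had 1465, 903 and 1301 CPM and was low there too. Dbnl (164, 218 and 247 CPM) and Cttn, the gene of cortactin (6.66, 10.1 and 11.5 CPM), were low in replicate 1. The highest of this list by level were Marcksl1 (381, 185 and 482 TPM) and the myosin light chain Myl6 (330, 272 and 354 TPM). Tmsb10, Marcksl1 and Plek had their lowest CPM in replicate 2, in which Tmsb4x and Actb had their highest. Of all genes tested, 31% were lowest in that replicate. Of the 23 regulators of this list, 5 were lowest and 12 highest there.

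Paralogs that were not on the list of 44 were mostly silent: 7 of 29 were expressed. The highest were Coro7 (30.6, 22.0 and 27.2 TPM) and Coro2a (25.4, 21.1 and 33.8 TPM), and Arpc5l, a second form of Arpc5, had 16.8, 13.0 and 20.1 TPM. Of the 13 with enough counts to be tested, 9 passed the test of variation, near the 70% of all genes tested. Of the 13, 2 reached 1.5 (19.5% of all genes tested did), Coro2b (2.27, 3.68 and 1.77 CPM) and Pfn2 (2.91, 1.49 and 1.79 CPM). Of 5 actin copies of other tissues, 0 were expressed; Acta2 was tested and varied, with 0.399, 0.166 and 0.605 CPM.

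Serum response factor, SRF, is a transcription factor that binds a motif named the CArG box and is itself regulated by the pool of free actin through the cofactors of the MRTF family. Of 7 genes of SRF and its cofactors 6 were expressed, led by Mrtfa (17.8, 11.5 and 19.6 TPM) and Elk4 (17.5, 12.7 and 17.4 TPM); Srf had 6.37, 6.05 and 7.51 TPM. Of the 6, 3 varied between replicates and 0 reached 1.5, where 70% and 19.5% of all genes tested did. Promoter windows from 250 bases before to 50 bases after the start of transcription were available from RefSeq (GRCm38.p6) for 42 of the 44 genes, Actb and Coro1b aside. A CArG box, which reads as a CArG box on both strands, was found for 4 of 42 genes (9.52%), where 1.81% of 27025 genes had one. They were Actg1, Vcl, Arpc4 and Vil1, a set that runs from the fifth highest of the 44 genes to the lowest. The stretches around the motif are shown because they hold the motif in full; each is printed 5′ to 3′ on the strand of its gene, with the motif in capitals.
Actg1, chr11:120348546-120348615, minus strand: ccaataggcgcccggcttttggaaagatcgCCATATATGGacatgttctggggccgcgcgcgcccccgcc
Vcl, chr14:20929148-20929210, plus strand: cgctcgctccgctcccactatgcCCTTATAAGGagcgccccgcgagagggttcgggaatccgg
Arpc4, chr6:113377863-113377902, plus strand: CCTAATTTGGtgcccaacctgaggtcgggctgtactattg
Vil1, chr1:74409281-74409350, plus strand: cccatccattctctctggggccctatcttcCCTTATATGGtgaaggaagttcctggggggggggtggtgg
The first base of the motif lay 90 bases before the start for Actg1, 227 for Vcl, 250 for Arpc4 and 73 for Vil1. The match describes letters in these windows, and binding of SRF was not measured.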

How the data were processed

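Total RNA of the cytosolic fraction was sequenced from 3 libraries made from 1 µg of RNA each, per the labels. Each library came with 1 table of genes and 2 of transcripts. Expected counts, read estimates that can be fractional, were deposited by the authors without normalisation. TPM, deposited by the authors in all tables, is taken over every indexed entry, short RNAs included. The posterior SD of each count, a score of uncertainty in the count's own unit, was deposited in the gene tables. The mm10 assembly and GENCODE M21 are named in notes deposited with the files; the strand setting, quantifier and aligner were not given in the sources used here. No column of another sample was found.

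Expected counts were rounded to whole numbers. Library sizes came from TMM (edgeR 4.0.16 in R 4.3.3), with DESeq2 1.42.0 size factors and total counts as alternatives. Variation between replicates was tested per gene with a Poisson chi-square (2 degrees of freedom) wherever the mean count reached 10, adjusted over all such genes by the Benjamini-Hochberg method at 0.05; the test was run on simulated data first. It covers counting error and says nothing of a condition. The edgeR fit behind the biological coefficient of variation held an intercept alone. Deviations use log2(CPM + 0.5) and pairs log2(TPM + 1). A count of 0 allows 3 counts, or up to 0.0625, 0.0551 and 0.0561 CPM. Coding sequences were read from GENCODE M21 transcripts and aligned with Biopython 1.88. Mrtfa and Mrtfb were matched through RefSeq synonyms, and the higher of 2 identifiers was used for Myl12b.

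The 44 genes, the lists of other genes and the pairs were chosen with earlier results of these data known. All 44 genes were named, with each replicate given for the 2 highest and the lowest of each role, for roles of 2, for pair members and for the 5 largest ratios; of other lists, the 2 highest genes and those varying at least 1.5 times. One of the lists of regulators is not reported here.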

Additional observations from a re-analysis of the deposited data

How the results depend on the processing

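No paired analysis was possible because the study has 1 group. Over 170 alternative values for 30 results, 153 stayed within the limit set for their kind, 15 moved further and 2 reversed. For counts the limit was a ratio of at most 1.5 to the main value, so 33 in place of 42 genes stayed within it. For pair differences it was the same sign. For other values it was a change below 1 SD, taken over replicates, or over genes for the coefficient of variation. The reversals were Coro1a minus Coro1c, which ran from -0.10 (without replicate 2) to 0.15 with replicates left out, and Vasp minus Evl, which was 1.58 over whole reading frames alone. Leaving out replicates in turn gave 33 to 39 genes past the test of variation (49.8% to 53.8% of all genes tested), 1 to 2 with a ratio of at least 1.5 (1 without replicate 2; 9.98% to 12.5% of all genes), and a median coefficient of variation of 0.134 to 0.168. With total count library sizes 40 genes passed and 2 reached 1.5 (73.1% and 20.4% of all genes). In which replicate genes were highest or lowest depended in part on the scale, and the shares of all genes tested, given in parentheses, moved too. In TPM rescaled to protein-coding genes, 25 genes were highest and 8 lowest in replicate 2 (29.5% and 31.6%), close to CPM, but 10 were highest and 14 lowest in replicate 1 (46.3% and 20.6%) and 8 highest and 21 lowest in replicate 3 (24.1% and 47.8%). In deposited TPM, 9 were highest and 3 lowest in replicate 1 (44.4% and 7.52%), 1 was highest and 39 lowest in replicate 2 (3.93% and 80%), and 33 were highest and 1 lowest in replicate 3 (51.6% and 12.5%). In the second transcript table the highest Arp2/3 subunit had 2.15 times the TPM of the lowest, 17 genes had a transcript of at least 90%, and the median non-coding share was 2.24% against 0.992%. Beyond what these settings are built from, the causes were not tested. With 3 replicates no permutation test could pass 0.05, and Vil1 lies at or near the limit of depth.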

Other observations

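Non-coding genes lie within or across several of the actin cytoskeleton genes. Of 9 such genes with a mean count high enough to be tested, 8 had their highest CPM in replicate 1, where 34.4% of all genes tested did. Gm17122, antisense to Coro1c, had 4.44, 3.29 and 0.899 CPM in replicates 1, 2 and 3, and Gm42659, inside an intron of Capza1, had 1.84, 1.10 and 0.370 CPM. Gm26586, antisense to Tpm4, had 1.30, 0.571 and 0.195 CPM, and Gm15628, on the strand opposite Lcp1, had 0.642, 0.0921 and 0.0585 CPM. The values of Gm15628 in replicates 2 and 3 lie near the limits set by a count of 0, 0.0551 and 0.0561 CPM. The exception was Gm43336 within Coro1c, with 0.219, 0.608 and 0.136 CPM. Each of the 9 held at most 1.47% of the count of the gene it overlaps. Coding genes on the opposite strand ranged from 0 counts (Kpna7, opposite Arpc1a) to more than the gene they overlap (Ap3m1, opposite Vcl, and Usp37, opposite Vil1). Among them Ppt1 had 15.2% of the count of Cap1, Bola2 13.8% of that of Coro1a, and Rps6kb2 6.75% of that of Coro1b.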
